A study of Mus musculus with 8 samples.

Results

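The 44 genes described here encode the machinery that attaches, moves and packs chromosomes in mitosis. They are CENP-A and inner kinetochore proteins (10 genes), outer kinetochore proteins (6), mitotic kinesins and spindle factors (11), condensins with Top2a and Mki67 (9), chromosomal passenger complex subunits (3), and mitotic cyclins with Cdc20 and Ube2c (5). They were chosen by name, through the symbols of the deposited Ensembl identifiers, and all 44 were found among the 55421 identifiers of the table. They lie on 17 chromosomes.

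RNA was sequenced in bulk from splenic germinal centre B cells of C57BL/6 mice aged 8 to 10 weeks, taken at day 10 after immunization and isolated with a PNA MicroBead kit, and the question is how expression differs with 1 in place of 2 Smarca4 copies and between the cell fractions. The groups were Smarca4+/- CC, Smarca4+/+ CC, Smarca4+/- CB and Smarca4+/+ CB, with 2 libraries each. CC and CB are read here as centrocytes and centroblasts, the germinal centre B cells of the light and the dark zone. The product of Smarca4, BRG1, is the motor of SWI/SNF complexes, which move nucleosomes, and Smarca4+/- cells carry 1 intact copy. The labels do not say how the allele was removed or in which cells, how CC were parted from CB, or whether replicates were separate mice, so p-values reflect library-to-library spread alone, and that spread could be technical.

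A kinetochore forms on each centromere. Nucleosomes that hold the histone variant CENP-A recruit an inner layer, the constitutive centromere associated network, and this carries the outer layer, in which the NDC80 complex binds spindle microtubules. Mitotic kinesins build the spindle and carry chromosomes along it, condensins and topoisomerase II shape the chromosomes, and the passenger complex corrects faulty attachments. Cyclins A and B drive entry into mitosis, and the anaphase promoting complex with its activator Cdc20 and the ubiquitin-conjugating enzyme Ube2c ends it. Most of these genes are transcribed in G2 and mitosis. Centroblasts divide quickly in the dark zone, while centrocytes in the light zone are selected by antigen and T cell help and divide less.

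The CC libraries held 526353 to 837558 counts and the CB libraries 18357578 to 24341805. Levels are given as CPM, the standard depth-scaled unit of counts over the library total, here after TMM scaling, on which 1 count was worth 1.19 to 1.79 CPM in CC and 0.0467 to 0.0527 CPM in CB. Smarca4 stood at 244 and 311 CPM in Smarca4+/- CC and at 322 and 316 CPM in Smarca4+/+ CC. In CB it stood at 734 and 702 CPM in Smarca4+/- and at 897 and 1002 CPM in Smarca4+/+ cells. Both Smarca4+/- values lay below both Smarca4+/+ values in each fraction, but in CC the nearest were 311 and 316 CPM (262 and 193 counts). No test of Smarca4 is given. The B cell markers Cd79a and Ms4a1 and the germinal centre markers Bcl6 and S1pr2 were detected in every library. Cxcr4, a dark zone receptor, stood at 32.2 to 78.2 CPM in CC and 192 to 257 CPM in CB. Among genes with 1 to 20 counts, 84.1% to 92.0% of the counts were even numbers in CC and 75.1% to 81.1% in CB, so a count may often be less than an independent fragment.

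All 44 genes passed the filter on low counts, and all were detected in each CB library. In CC, 42 and 44 of them had a count in the Smarca4+/- libraries and 39 and 36 in the Smarca4+/+ libraries. The CC values rest on few reads, since 32 of the genes had fewer than 50 counts in both Smarca4+/+ CC libraries. Passing the filter needed enough counts in only 2 libraries, which the CB libraries alone could supply. With only the CC groups compared 38 of the 44 genes passed it, and 41 with CB thinned to 657641 counts. For genes at 0 in both Smarca4+/+ CC libraries, only a fall in CC against CB could be seen. Per kilobase of exon, Mki67 had the highest mean level in every group, with 216 CPM per kb in Smarca4+/- CC, 107 in Smarca4+/+ CC, 408 in Smarca4+/- CB and 391 in Smarca4+/+ CB. In Smarca4+/+ CB the next levels per kilobase were 125 for Top2a and 99.8 for Ncapd2, and the lowest was 1.36 for Cenpw.

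As a group the genes were lower in CC than in CB in both genotypes. Their summed level was 4875 and 6917 CPM in Smarca4+/- CC, 3224 and 3021 CPM in Smarca4+/+ CC, 12671 and 10183 CPM in Smarca4+/- CB, and 9729 and 10909 CPM in Smarca4+/+ CB. All 4 CC sums lay below all 4 CB sums, and both Smarca4+/- CC sums lay above both Smarca4+/+ CC sums. The mean CC sum was 51.6% of the mean CB sum in Smarca4+/- cells and 30.3% in Smarca4+/+ cells. Relative to the summed level of 12 general B cell genes in the same library, the sum was 0.841 and 0.919 in Smarca4+/- CC, 0.508 and 0.455 in Smarca4+/+ CC, 1.64 and 1.20 in Smarca4+/- CB, and 1.11 and 1.33 in Smarca4+/+ CB, with the same order of groups. Mki67 alone gave 34.0% to 38.8% of the summed level in each library. In bulk RNA, fewer cells that express a gene and less of its RNA per cell cannot be told apart.

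**Figure D1:**
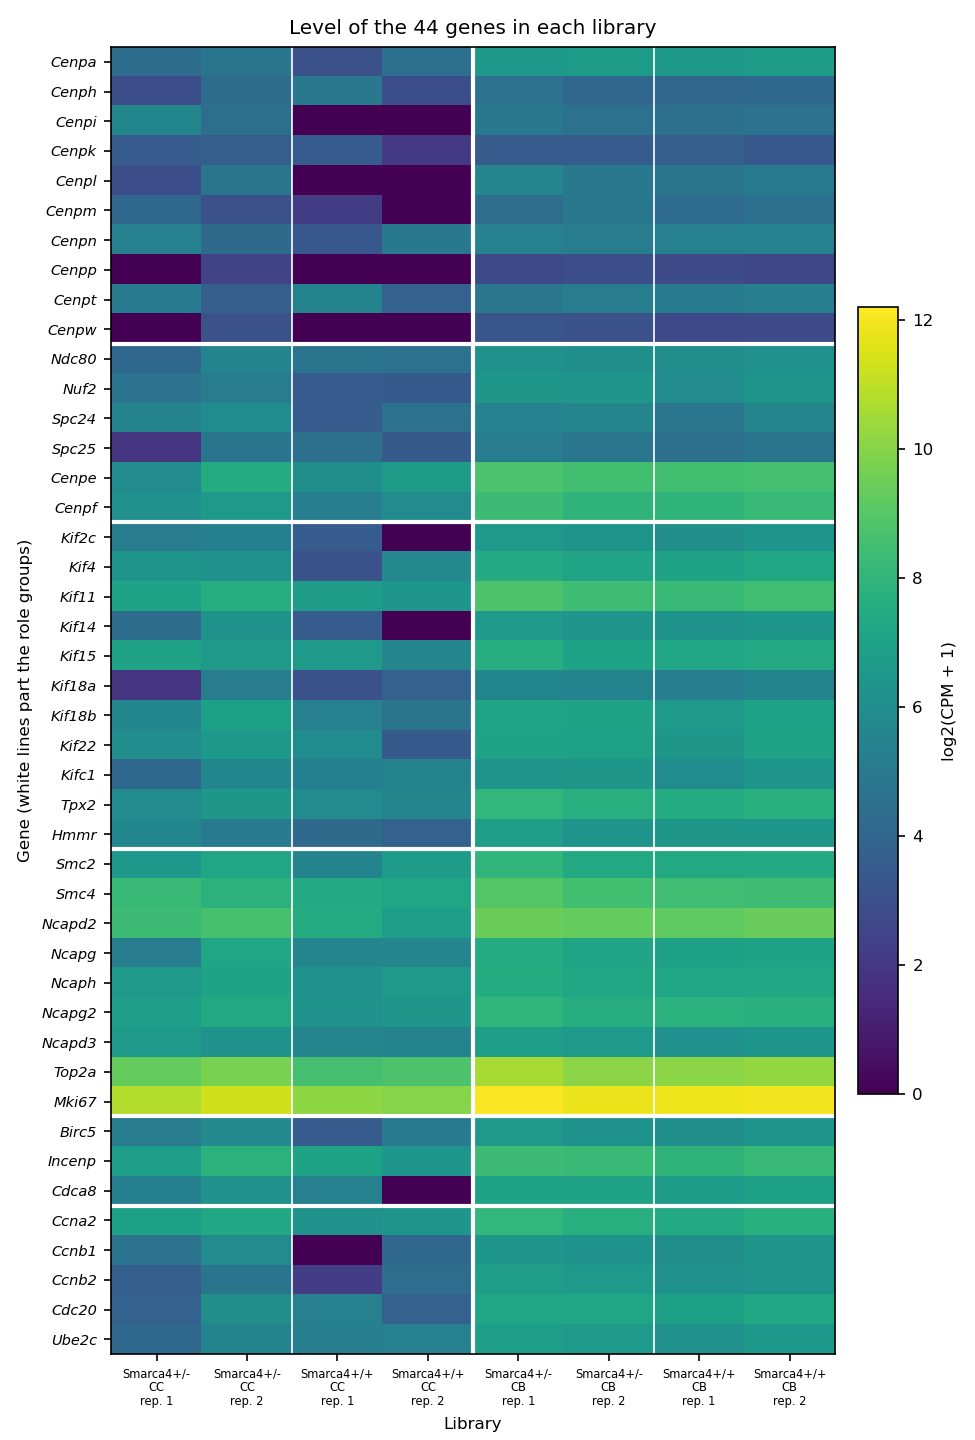
Level of each of the 44 genes (rows, by role) in each of the 8 libraries (columns), as log2(CPM + 1) in colour. The 4 CC libraries on the left are darker than the 4 CB libraries for most genes, and the darkest cells are genes at 0 in a CC library, 5 and 8 of them in the Smarca4+/+ CC libraries.

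In Smarca4+/- cells, 9 of the 44 genes fell in CC against CB and 0 rose (edgeR quasi-likelihood F test, Benjamini-Hochberg adjusted over 12997 genes, threshold 0.05), where 1.5% of all tested genes fell and 2.17% rose. At an unadjusted p under 0.05, 24 were lower, against 9.36% of all genes, and for 37 both CC libraries lay below both CB libraries, against 33.2%. The fold change was below 0 for 41 of the 44, against 53.9%. The median log2 fold change was -0.96, against -0.08 over all genes. The count depended on single libraries: it was 0 without Smarca4+/- CC replicate 1 and without either Smarca4+/- CB library, 19 without Smarca4+/- CC replicate 2, 16 without either Smarca4+/+ CC library, and 5 and 4 without Smarca4+/+ CB replicates 1 and 2. The number called over all tested genes moved the same way in each of these fits, so the shifts were not particular to the 44 genes. The filter on low counts was run anew in each fit, so 9977 to 15003 genes were tested in place of 12997. Without any 1 CB library 42 of the 44 genes were tested. The part of the changed gene set in these shifts was not tested. Without Smarca4+/- CC replicate 2 the median was -1.52.

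In Smarca4+/+ cells, 24 of the 44 genes fell in CC against CB and 0 rose, where 3.76% of all tested genes fell and 3.72% rose. At an unadjusted p under 0.05, 38 of the 44 were lower, against 13.2% of all genes. Both CC libraries lay below both CB libraries for 41 of the 44, against 38.5% of all genes. The fold change was below 0 for 43 of the 44, against 57.9% of all genes. The median log2 fold change of the 44 was -1.76, and -1.69 with the genes at 0 in a group set at their bound, against -0.19 over all genes tested. Leaving out Smarca4+/+ CB replicate 1 gave a count of 12, leaving out replicate 2 of that group gave 10, and it was 16 to 30 without any other library, and 10 of the 24 genes were called whichever library was left out. Over all tested genes the number called was also lowest without either Smarca4+/+ CB library. The set of genes tested changed in these fits as well. The genes that fell in both genotypes were Cenpa, Nuf2, Cenpe, Cenpf, Kif11, Tpx2, Mki67 and Ccnb2, 8 of the 9 genes called in Smarca4+/- and of the 24 called in Smarca4+/+. Whether the fractions differed by a different amount in the 2 genotypes was tested directly and is given with the genotype comparison.

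**Figure D2:**
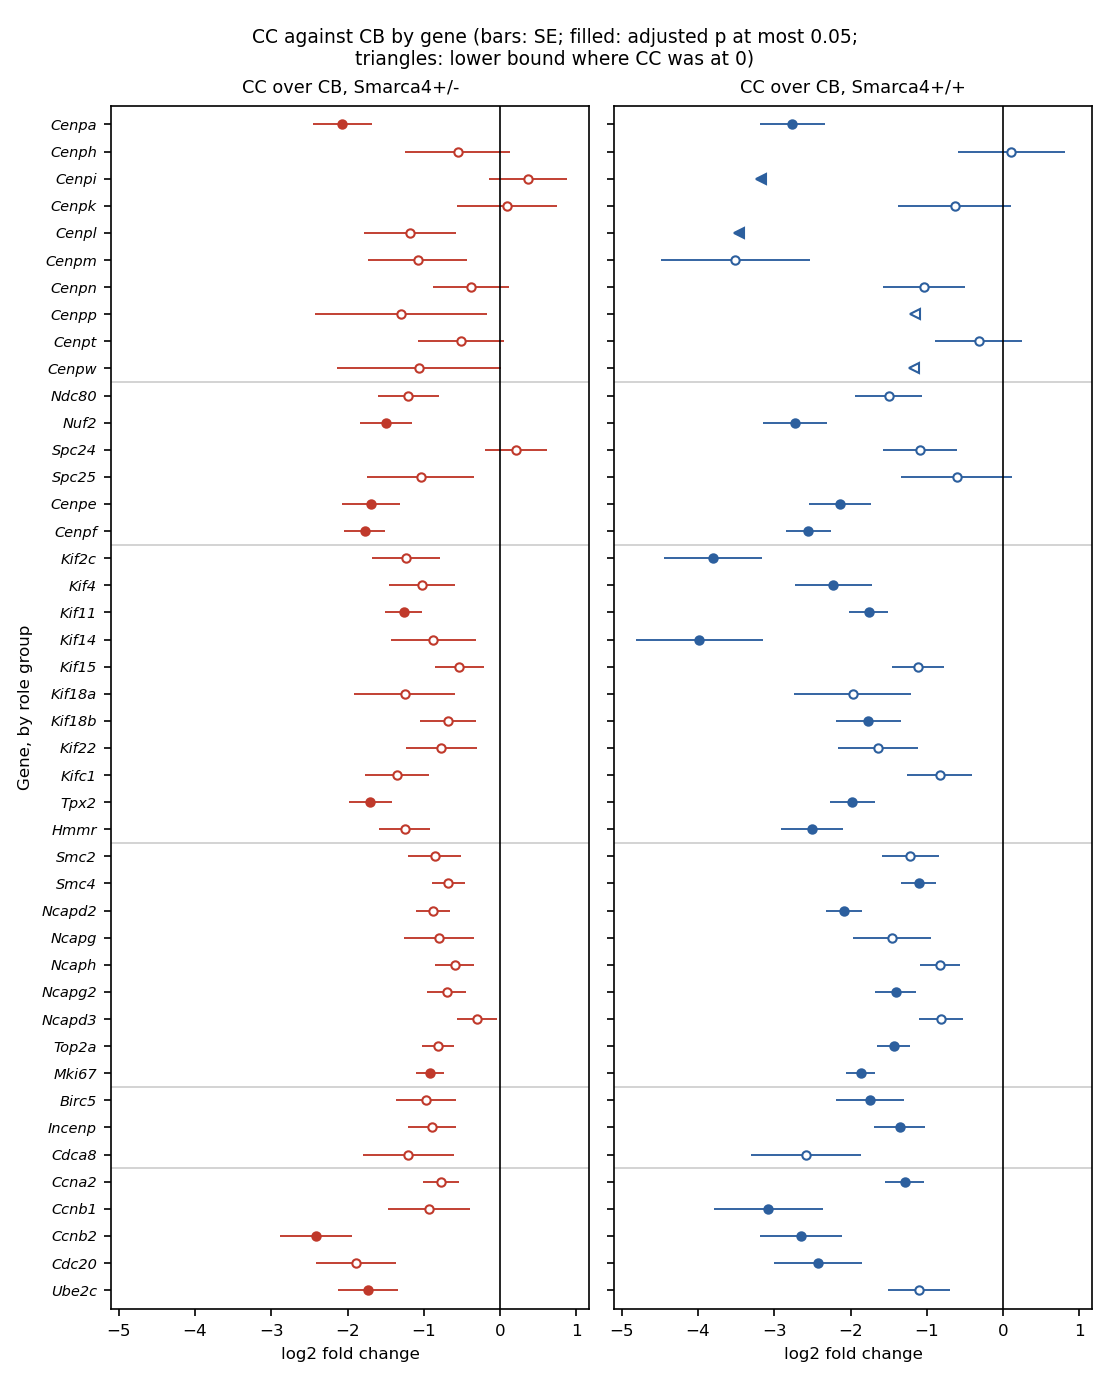
Log2 fold change of CC over CB for each gene in Smarca4+/- (left) and Smarca4+/+ cells (right), with SE as bars and filled symbols for an adjusted p of at most 0.05. Triangles stand for the smallest fold that the floor allows where both Smarca4+/+ CC libraries were at 0. The points lie left of 0 for 41 genes in Smarca4+/- and 43 genes in Smarca4+/+ cells.

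Promoters of late cell cycle genes often carry the cell cycle genes homology region (CHR), a short element bound by the DREAM repressor complex in resting cells and by MuvB with B-MYB and FOXM1 in dividing cells, and a CCAAT box, bound by NF-Y. The RefSeq table of promoters (GRCm38.p6, 250 bases before the start site and 50 from it on) held 42 promoters of 39 of the 44 genes. It gave none for Spc24, Smc4, Tpx2, Ccna2 and Incenp. The letters TTTGAA for the CHR, CCAAT for the CCAAT box and GGCGGGA for the E2F core were searched on both strands. A CHR match was in 27 of the 42 promoters (64.3%), against 17.9% of all 32851 promoters of the table. A CCAAT box was in 71.4%, against 37.4%, and an E2F core in 21.4%, against 11.3%. Both a CHR and a CCAAT box were in 22 promoters (52.4%), against 6.95%. Within 50 bases on either side of the start site, 21 of the 42 promoters (50%) held a CHR, against 4.94%. In 2 promoters, those of Cdca8 and Cenpw, matches of different motifs shared bases.

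Of the genes that fell in Smarca4+/+ CC, 20 had a promoter in the table and 15 of these held a CHR. Of the genes that did not pass, 19 had a promoter and 12 held a CHR, so the motif was common in both sets. The promoters printed here belong, in each role group, to the gene of smallest p among those that fell in Smarca4+/+ CC with a CHR in the promoter, and no passenger complex gene met that rule. They run from 200 bases before the start site to 30 from it on. Capitals mark CHR matches (TTTGAA, or TTCAAA on the other strand) and CCAAT boxes (CCAAT, or ATTGG on the other strand).
Cenpa, chr5:30666686-30666915, plus strand: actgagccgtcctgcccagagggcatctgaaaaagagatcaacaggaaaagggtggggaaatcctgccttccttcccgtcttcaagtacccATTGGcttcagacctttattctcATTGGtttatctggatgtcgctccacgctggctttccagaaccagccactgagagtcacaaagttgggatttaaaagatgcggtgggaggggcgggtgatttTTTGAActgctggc
Cenpf, chr1:189688057-189688286, minus strand: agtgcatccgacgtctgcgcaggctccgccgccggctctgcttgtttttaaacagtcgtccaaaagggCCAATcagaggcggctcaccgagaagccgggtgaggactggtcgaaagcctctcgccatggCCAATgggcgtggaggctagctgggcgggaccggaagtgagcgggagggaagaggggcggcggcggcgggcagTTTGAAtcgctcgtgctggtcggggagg
Kif11, chr19:37376182-37376411, plus strand: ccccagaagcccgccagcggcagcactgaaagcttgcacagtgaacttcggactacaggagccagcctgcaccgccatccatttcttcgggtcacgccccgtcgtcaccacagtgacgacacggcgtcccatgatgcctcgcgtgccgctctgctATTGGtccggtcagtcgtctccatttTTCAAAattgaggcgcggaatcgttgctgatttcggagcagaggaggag
Mki67, chr7:135716350-135716579, minus strand: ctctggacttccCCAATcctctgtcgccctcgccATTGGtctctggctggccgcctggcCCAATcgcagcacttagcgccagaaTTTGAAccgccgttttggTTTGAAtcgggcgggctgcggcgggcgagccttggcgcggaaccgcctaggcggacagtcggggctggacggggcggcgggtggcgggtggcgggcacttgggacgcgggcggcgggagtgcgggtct
Ccnb2, chr9:70421525-70421754, minus strand: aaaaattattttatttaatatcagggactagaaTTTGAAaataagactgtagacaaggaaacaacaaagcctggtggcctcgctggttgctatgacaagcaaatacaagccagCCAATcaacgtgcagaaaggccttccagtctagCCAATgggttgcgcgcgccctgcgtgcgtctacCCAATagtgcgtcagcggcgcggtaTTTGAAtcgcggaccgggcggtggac

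In these 5 stretches the CHR of Kif11 began 19 bases before the start site and followed a CCAAT box that began 45 bases before it. Mki67 held 2 CHR matches, 116 and 98 bases before the start site, downstream of 3 CCAAT boxes. Ccnb2, Cenpa and Cenpf each held a CHR just past the start site, at positions 5, 17 and 3 counted from the start site as 1, with CCAAT boxes upstream. A match is a string of letters and was not shown here to be bound.

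**Figure D3:**
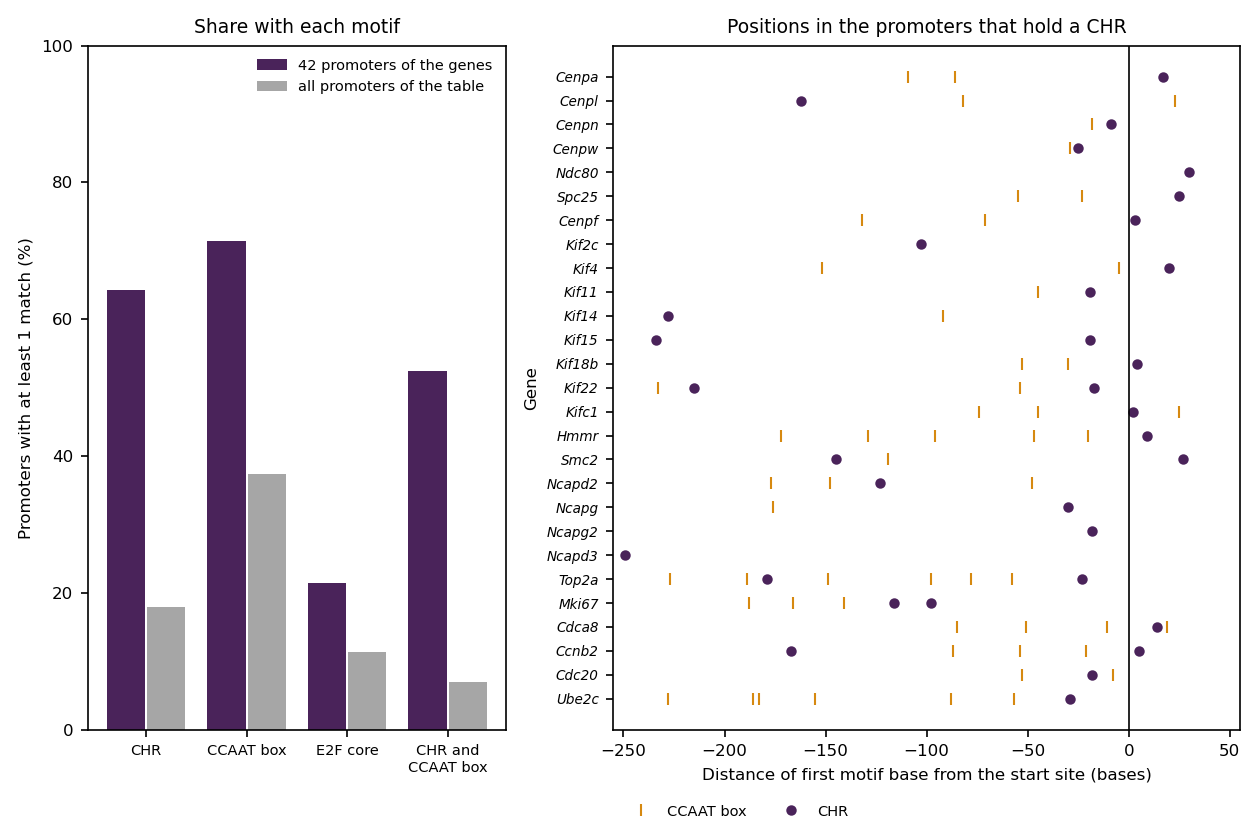
Left, share of promoters (%) with at least 1 match, for the 42 promoters of the genes (dark) and all 32851 promoters (grey). Right, distance in bases of each CHR and CCAAT box from the start site in the promoters that hold a CHR, where CHR matches gather near the start site and CCAAT boxes lie mostly before it.

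Among CENP-A and the inner kinetochore genes, 1 of 10 fell in Smarca4+/- CC against CB (Cenpa) and 3 in Smarca4+/+ CC (Cenpa, Cenpi and Cenpl). Cenpa, the centromeric histone H3 variant (ENSMUSG00000029177.9, mm10 chr5:30666777-30674830, plus strand), had 18.7 and 26.1 CPM in Smarca4+/- CC, 7.15 and 21.3 CPM in Smarca4+/+ CC, 89.6 and 99.0 CPM in Smarca4+/- CB, and 88.8 and 107 CPM in Smarca4+/+ CB. All 4 CC libraries were far below all 4 CB libraries, and the genotypes overlapped in CC. Its log2 fold change in CC over CB was -2.07 (SE 0.38, adjusted p = 0.0141) in Smarca4+/- and -2.76 (SE 0.43, adjusted p = 0.00392) in Smarca4+/+ cells. The Smarca4+/- call was lost without Smarca4+/- CC replicate 1 or either Smarca4+/- CB library (adjusted p = 0.125 to 0.182).

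Cenpi and Cenpl, 2 subunits of the inner network, had no count in either Smarca4+/+ CC library. Cenpi had 48.1 and 20.2 CPM in Smarca4+/- CC, 29.5 and 23.1 CPM in Smarca4+/- CB, and 22.0 and 24.4 CPM in Smarca4+/+ CB. It was thus listed at CB levels in Smarca4+/- CC and at 0 in Smarca4+/+ CC. Its log2 fold change in Smarca4+/- cells was 0.37 (SE 0.51). Against a floor of 3 counts over the group (2.56 CPM), Cenpi was at least 9.06-fold lower in Smarca4+/+ CC than in Smarca4+/+ CB (adjusted p = 0.0123). Cenpl had 6.68 and 26.1 CPM in Smarca4+/- CC, 45.9 and 29.9 CPM in Smarca4+/- CB, and 24.9 and 31.6 CPM in Smarca4+/+ CB. It was at least 11-fold lower in Smarca4+/+ CC than in CB (adjusted p = 0.0144). Without 1 Smarca4+/+ CC library the floor rose and both bounds were lower, 4.33-fold to 4.73-fold for Cenpi and 5.26-fold to 5.76-fold for Cenpl. The Cenpi call was lost without Smarca4+/+ CB replicate 2 (adjusted p = 0.0542, in a range of 5.22e-05 to 0.0740 over the 20 alternatives), and the Cenpl call without that library or without Smarca4+/+ CC replicate 2 (adjusted p = 0.0502 to 0.0623).

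Cenpp and Cenpw were also at 0 in both Smarca4+/+ CC libraries, but their CB levels of 5.32 to 8.22 CPM left bounds of only at least 2.22-fold and at least 2.24-fold lower in Smarca4+/+ CC, which were 1.06-fold to 1.17-fold without 1 Smarca4+/+ CC library, and neither passed. Cenpm had 2 counts in Smarca4+/+ CC replicate 1 and 0 in replicate 2, and a level 11.6-fold lower there than in Smarca4+/+ CB (counting interval 3.19 to 95.6; edgeR adjusted p = 0.0515). Cenpn, which reads the CENP-A nucleosome, had 38.7 and 17.8 CPM in Smarca4+/- CC, 8.93 and 29.4 CPM in Smarca4+/+ CC, 39.2 and 34.2 CPM in Smarca4+/- CB, and 38.7 and 41.1 CPM in Smarca4+/+ CB. The Cenpn libraries overlapped between CC and CB in Smarca4+/- cells. Cenph, Cenpk and Cenpt gave log2 fold changes of -0.56, 0.09 and -0.51 in Smarca4+/- and of 0.11, -0.64 and -0.32 in Smarca4+/+ cells, with SE of 0.57 to 0.74.

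Of the 6 outer kinetochore genes, the same 3 passed in each genotype: Nuf2, Cenpe and Cenpf. Nuf2, a microtubule-binding subunit of the NDC80 complex, had 24.0 and 35.6 CPM in Smarca4+/- CC, 10.7 and 9.81 CPM in Smarca4+/+ CC, 87.4 and 81.4 CPM in Smarca4+/- CB, and 57.9 and 77.9 CPM in Smarca4+/+ CB. The 4 groups did not overlap, and Smarca4+/+ CC was lowest. Its log2 fold change in CC over CB was -1.49 (SE 0.34, adjusted p = 0.0345) in Smarca4+/- and -2.73 (SE 0.42, adjusted p = 0.00376) in Smarca4+/+ cells.

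Cenpe, the kinesin that moves chromosomes to the metaphase plate, had 58.8 and 184 CPM in Smarca4+/- CC, 66.1 and 99.7 CPM in Smarca4+/+ CC, 432 and 358 CPM in Smarca4+/- CB, and 362 and 372 CPM in Smarca4+/+ CB. Its fold changes were -1.69 (SE 0.39, adjusted p = 0.036) in Smarca4+/- and -2.14 (SE 0.41, adjusted p = 0.0116) in Smarca4+/+ cells on the log2 scale. Cenpf, a large outer kinetochore protein of G2 and M phase, had 72.1 and 94.8 CPM in Smarca4+/- CC, 35.7 and 58.8 CPM in Smarca4+/+ CC, 328 and 246 CPM in Smarca4+/- CB, and 256 and 303 CPM in Smarca4+/+ CB. Both genes were lower in every CC library than in any CB library. Cenpf fell by 1.78 (SE 0.27, adjusted p = 0.00629) in Smarca4+/- and by 2.55 (SE 0.30, adjusted p = 0.0012) in Smarca4+/+ CC on the log2 scale.

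The Smarca4+/- calls of these 3 genes were lost without Smarca4+/- CC replicate 1 or either Smarca4+/- CB library, and those of Cenpe and Nuf2 also without either Smarca4+/+ CB library (adjusted p = 0.0680 to 0.353). The Smarca4+/+ call of Cenpe was lost without either Smarca4+/+ CB library or without Smarca4+/+ CC replicate 1 (adjusted p = 0.0542 to 0.0612). Ndc80, the namesake of the complex, had 16.0 and 45.1 CPM in Smarca4+/- CC, 25.0 and 22.9 CPM in Smarca4+/+ CC, 75.7 and 66.5 CPM in Smarca4+/- CB, and 64.8 and 70.7 CPM in Smarca4+/+ CB. Every Ndc80 CC value was below every CB value, yet it did not pass in either genotype (log2 fold change -1.20, SE 0.40, adjusted p = 0.142 in Smarca4+/-; -1.50, SE 0.44, adjusted p = 0.0624 in Smarca4+/+). Spc24 and Spc25, the subunits that join the complex to the inner kinetochore, did not pass in either genotype. Spc24 had 42.7 and 59.3 CPM in Smarca4+/- CC, 10.7 and 22.9 CPM in Smarca4+/+ CC, 42.1 and 46.5 CPM in Smarca4+/- CB, and 26.5 and 45.5 CPM in Smarca4+/+ CB, so that Smarca4+/- CC lay within or above the CB values.

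In the group of kinesins and spindle factors, 2 of 11 fell in Smarca4+/- CC (Kif11 and Tpx2) and 7 in Smarca4+/+ CC (Kif2c, Kif4, Kif11, Kif14, Kif18b, Tpx2 and Hmmr). Kif11, the motor that pushes spindle poles apart, had 135 and 191 CPM in Smarca4+/- CC, 107 and 85.0 CPM in Smarca4+/+ CC, 446 and 339 CPM in Smarca4+/- CB, and 296 and 355 CPM in Smarca4+/+ CB. Smarca4+/+ CC was lowest, Smarca4+/- CC next, and both lay below all CB libraries. Its log2 fold change was -1.27 (SE 0.24, adjusted p = 0.0167) in Smarca4+/- and -1.76 (SE 0.26, adjusted p = 0.00318) in Smarca4+/+ cells. Tpx2, an activator of the kinase Aurora A on the spindle, had 57.4 and 86.5 CPM in Smarca4+/- CC, 57.2 and 45.8 CPM in Smarca4+/+ CC, 273 and 197 CPM in Smarca4+/- CB, and 190 and 214 CPM in Smarca4+/+ CB. It fell by 1.70 (SE 0.28, adjusted p = 0.00859) in Smarca4+/- and by 1.98 (SE 0.30, adjusted p = 0.0034) in Smarca4+/+ CC on the log2 scale. The Smarca4+/- calls of both were lost without Smarca4+/- CC replicate 1 or either Smarca4+/- CB library (adjusted p = 0.0834 to 0.258).

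Kif2c, a kinesin that takes microtubules apart at the kinetochore, had 34.7 and 37.9 CPM in Smarca4+/- CC, 10.7 and 0 CPM in Smarca4+/+ CC, 92.3 and 78.5 CPM in Smarca4+/- CB, and 65.3 and 79.0 CPM in Smarca4+/+ CB. Hmmr, a spindle assembly factor, had 50.7 and 30.8 CPM in Smarca4+/- CC, 17.9 and 13.1 CPM in Smarca4+/+ CC, 115 and 78.3 CPM in Smarca4+/- CB, and 87.9 and 86.8 CPM in Smarca4+/+ CB. For both genes the 2 CC groups did not overlap each other or CB. In Smarca4+/- cells the adjusted p-values were 0.172 for Kif2c and 0.0705 for Hmmr, while in Smarca4+/+ cells Kif2c fell by 3.80 (SE 0.64, adjusted p = 0.00626) and Hmmr fell by 2.50 (SE 0.41, adjusted p = 0.00495) on the log2 scale. The 4 further kinesins that did not pass in either genotype were Kif15, Kif18a, Kif22 and Kifc1, with log2 fold changes of -0.53 to -1.35 in Smarca4+/- and -0.83 to -1.97 in Smarca4+/+ cells. The Smarca4+/+ calls of Kif4, Kif14 and Kif18b were each lost when any 1 of the 4 CB libraries was left out, those of Kif14 and Kif18b also without Smarca4+/+ CC replicate 2 (adjusted p = 0.0501 to 0.208). Kifc1 shares 96.8% of its sequence with Kifc5b over nearly its whole transcript, and Kif4 shares 832 exon bases with Pdzd11 on the other strand, so both levels are uncertain.

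Of the condensins, Top2a and Mki67, 1 of 9 fell in Smarca4+/- CC (Mki67) and 5 in Smarca4+/+ CC (Smc4, Ncapd2, Ncapg2, Top2a and Mki67), and the 9 log2 fold changes in Smarca4+/+ cells were all below 0, from -2.09 to -0.81. Mki67, whose protein coats mitotic chromosomes and marks cycling cells, had 1777 and 2574 CPM in Smarca4+/- CC, 1129 and 1027 CPM in Smarca4+/+ CC, 4527 and 3681 CPM in Smarca4+/- CB, and 3770 and 4102 CPM in Smarca4+/+ CB. The groups kept the order Smarca4+/+ CC, Smarca4+/- CC and CB without overlap between them. Its log2 fold change was -0.92 (SE 0.19, adjusted p = 0.0224) in Smarca4+/- and -1.87 (SE 0.19, adjusted p = 0.000853) in Smarca4+/+ cells. The Smarca4+/- call was lost without Smarca4+/- CC replicate 1 or when any 1 CB library was left out (adjusted p = 0.0593 to 0.325).

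Top2a, the topoisomerase that untangles sister chromatids, had 644 and 856 CPM in Smarca4+/- CC, 393 and 441 CPM in Smarca4+/+ CC, 1561 and 1082 CPM in Smarca4+/- CB, and 1080 and 1177 CPM in Smarca4+/+ CB. Ncapd2, a condensin I subunit, had 323 and 403 CPM in Smarca4+/- CC, 180 and 114 CPM in Smarca4+/+ CC, 711 and 630 CPM in Smarca4+/- CB, and 571 and 680 CPM in Smarca4+/+ CB. Both showed the same order, with Smarca4+/- CC between Smarca4+/+ CC and CB and no overlap. In Smarca4+/- cells the log2 fold changes were -0.82 (SE 0.21, adjusted p = 0.0558) for Top2a and -0.88 (SE 0.22, adjusted p = 0.0533) for Ncapd2, and in Smarca4+/+ cells Top2a fell by 1.43 (SE 0.21, adjusted p = 0.00328) and Ncapd2 fell by 2.09 (SE 0.24, adjusted p = 0.00119) on the log2 scale.

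Ncapg2, a condensin II subunit, had 114 and 167 CPM in Smarca4+/- CC, 75.1 and 88.3 CPM in Smarca4+/+ CC, 264 and 194 CPM in Smarca4+/- CB, and 223 and 211 CPM in Smarca4+/+ CB. It fell in Smarca4+/+ CC (log2 fold change -1.41, SE 0.27, adjusted p = 0.0113). Smc4, which with Smc2 forms the core of both condensins, fell by 1.11 (SE 0.23, adjusted p = 0.0163) in Smarca4+/+ CC. Both calls were lost without either Smarca4+/+ CB library, and that of Smc4 also without Smarca4+/+ CC replicate 2 (adjusted p = 0.0680 to 0.128). Smc2, Ncapg, Ncaph and Ncapd3 did not pass in either genotype. Their log2 fold changes were -0.86 to -0.30 in Smarca4+/- and -1.46 to -0.81 in Smarca4+/+ cells. Ncapg shares 944 exon bases with Lcorl on the other strand.

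Of the 3 passenger complex genes, 0 passed in Smarca4+/- CC, while Birc5 and Incenp fell in Smarca4+/+ CC. Birc5 (survivin), which brings the complex to the centromere, had 34.7 and 52.2 CPM in Smarca4+/- CC, 10.7 and 32.7 CPM in Smarca4+/+ CC, 95.8 and 75.8 CPM in Smarca4+/- CB, and 65.4 and 82.6 CPM in Smarca4+/+ CB. Incenp, the scaffold that activates the kinase Aurora B, had 108 and 230 CPM in Smarca4+/- CC, 132 and 85.0 CPM in Smarca4+/+ CC, 328 and 304 CPM in Smarca4+/- CB, and 247 and 307 CPM in Smarca4+/+ CB. Cdca8 (borealin) had 37.4 and 75.9 CPM in Smarca4+/- CC, 39.3 and 0 CPM in Smarca4+/+ CC, 134 and 129 CPM in Smarca4+/- CB, and 106 and 123 CPM in Smarca4+/+ CB. For all 3 genes every CC value was below every CB value.

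In Smarca4+/- cells the 3 log2 fold changes were -0.98 for Birc5, -0.90 for Incenp and -1.20 for Cdca8 (adjusted p = 0.217, 0.160 and 0.313). In Smarca4+/+ cells Birc5 fell by 1.75 (SE 0.45, adjusted p = 0.038) and Incenp by 1.36 (SE 0.33, adjusted p = 0.0329) on the log2 scale, and Cdca8 stood at -2.59 (SE 0.72, adjusted p = 0.0522). The Birc5 and Incenp calls were lost when any 1 of the 4 CB libraries was left out, that of Birc5 also without Smarca4+/+ CC replicate 1 and that of Incenp without Smarca4+/+ CC replicate 2 (adjusted p = 0.0807 to 0.250).

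Among the cyclins and their degradation factors, 2 of 5 fell in Smarca4+/- CC (Ccnb2 and Ube2c) and 4 in Smarca4+/+ CC (Ccna2, Ccnb1, Ccnb2 and Cdc20). Ccnb2 (cyclin B2) had 12 and 26.1 CPM in Smarca4+/- CC, 3.57 and 19.6 CPM in Smarca4+/+ CC, 109 and 96.2 CPM in Smarca4+/- CB, and 70.4 and 78.4 CPM in Smarca4+/+ CB. It had the lowest log2 fold change of the 44 genes in Smarca4+/- cells, -2.41 (SE 0.47, adjusted p = 0.0183), and -2.65 (SE 0.53, adjusted p = 0.0144) in Smarca4+/+ cells. Ccnb1 (cyclin B1) had 24.0 and 58.1 CPM in Smarca4+/- CC, 0 and 16.3 CPM in Smarca4+/+ CC, 85.0 and 73.7 CPM in Smarca4+/- CB, and 63.3 and 79.7 CPM in Smarca4+/+ CB. For both cyclins the CC values lay below all CB values, while the genotypes overlapped in CC for Ccnb2 and not for Ccnb1. Ccnb1 fell in Smarca4+/+ CC (log2 fold change -3.08, SE 0.72, adjusted p = 0.0262). Its reads could be shared with 3 processed pseudogenes that are 97.3% to 99.2% identical over about 52% of its transcript.

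Ccna2 (cyclin A2) had 122 and 157 CPM in Smarca4+/- CC, 76.8 and 83.4 CPM in Smarca4+/+ CC, 269 and 207 CPM in Smarca4+/- CB, and 178 and 215 CPM in Smarca4+/+ CB. It fell in Smarca4+/+ CC by 1.29 (SE 0.25, adjusted p = 0.0129) on the log2 scale. On the other strand Ccna2 shares 510 exon bases with Exosc9, and Ube2c shares 592 with Tnnc2, so both levels are uncertain. Cdc20 had 13.4 and 65.2 CPM in Smarca4+/- CC, 39.3 and 13.1 CPM in Smarca4+/+ CC, 147 and 150 CPM in Smarca4+/- CB, and 120 and 158 CPM in Smarca4+/+ CB, and its CC libraries overlapped between genotypes. Cdc20 fell in Smarca4+/+ CC (log2 fold change -2.43, SE 0.58, adjusted p = 0.0293). Ube2c, with 16.0 and 45.1 CPM in Smarca4+/- CC, 35.7 and 39.2 CPM in Smarca4+/+ CC, 112 and 93.8 CPM in Smarca4+/- CB, and 70.1 and 90.9 CPM in Smarca4+/+ CB, fell in Smarca4+/- CC (-1.73, SE 0.40, adjusted p = 0.037) and did not pass in Smarca4+/+ CC (-1.10, SE 0.41, adjusted p = 0.129). The Smarca4+/+ calls of this group were lost without either Smarca4+/+ CB library (adjusted p = 0.0538 to 0.180), and those of Ccnb1, Ccnb2 and Cdc20 also without either Smarca4+/- CB library (adjusted p = 0.0524 to 0.0811). Those of Ccnb1 and Cdc20 were further lost without Smarca4+/+ CC replicates 1 and 2 in that order. The Smarca4+/- calls of Ccnb2 and Ube2c were lost without Smarca4+/- CC replicate 1, either Smarca4+/- CB library or Smarca4+/+ CB replicate 2, and that of Ube2c also without Smarca4+/+ CB replicate 1 (adjusted p = 0.0512 to 0.355).

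**Figure D4:**
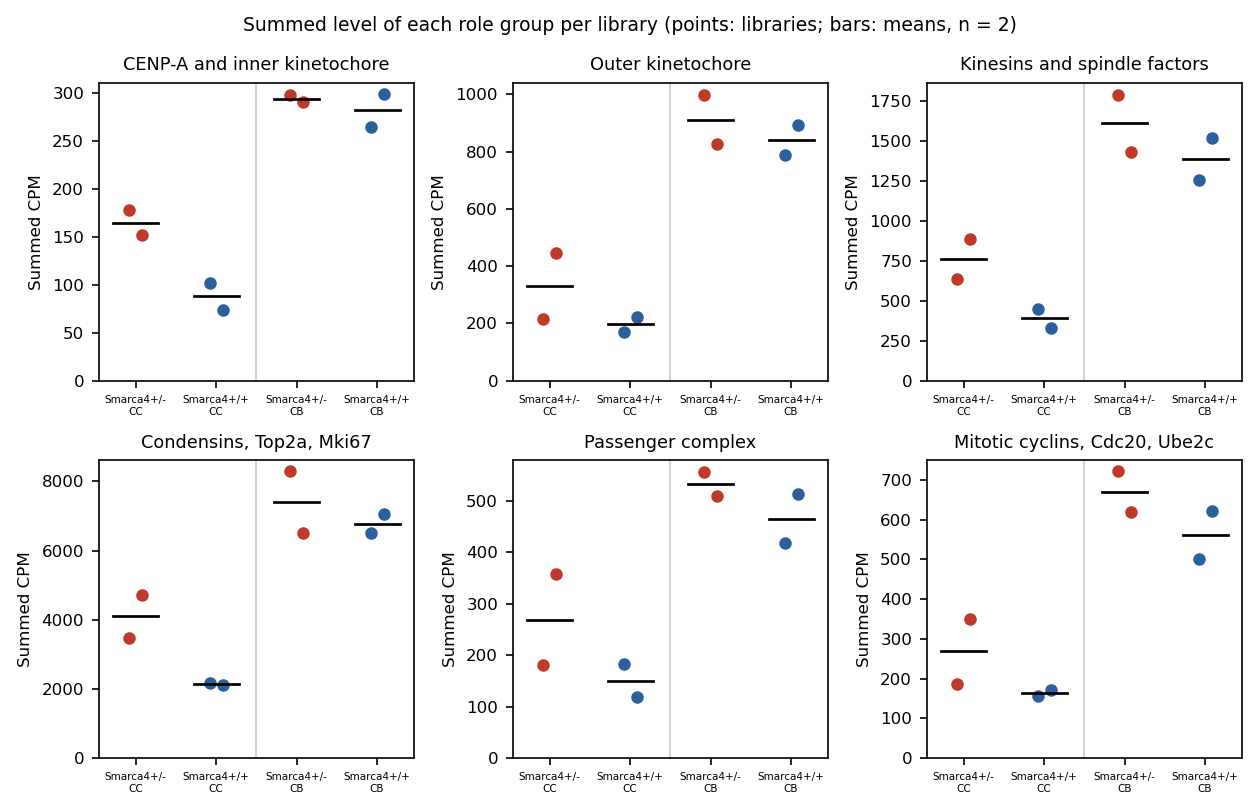
Summed CPM of the genes of each role group in each library (points, n = 2 per group; bars are means). In all 6 groups the Smarca4+/- CC mean lies between the Smarca4+/+ CC mean and both CB means.

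By role, the mean summed level in CC as a share of CB was 36.2% in Smarca4+/- and 23.4% in Smarca4+/+ cells for the outer kinetochore, and 40.1% and 29.1% for the cyclin group. It was 47.1% in Smarca4+/- and 28.2% in Smarca4+/+ cells for the kinesins, and 50.5% and 32.2% for the passenger complex. For the condensin group it was 55.4% in Smarca4+/- and 31.5% in Smarca4+/+ cells, and for the inner kinetochore 56.0% and 31.1%. The outer kinetochore group thus had the lowest share in each genotype, with no test of the differences between groups.

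Smarca4+/- was then set against Smarca4+/+ within each fraction. In CC, 0 of the 44 genes passed by edgeR, where 0.0231% of all tested genes did (3 genes, all lower). Most values were higher in Smarca4+/- CC: 39 of the 44 fold changes were above 0, against 55% of all genes. At an unadjusted p under 0.05, 20 were higher by edgeR on all 8 libraries, against 8.8% of all genes. At the same threshold 7 of the 44 passed with limma-voom, in either direction. With only the CC groups compared it was 9 of 38 tested. For these alternatives the share of all genes was not counted. Both Smarca4+/- CC libraries lay above both Smarca4+/+ CC libraries for 24 of the 44, against 18.1% of all genes. The median log2 fold change was 0.83, and 0.79 with genes at 0 set at their bound, against 0.03 over all genes. DESeq2 called 8 of the 44 higher, where it called 846 of all 12997 tested genes in either direction. Limma-voom called 0 of the 44 and 0 of all genes. Without Smarca4+/- CC replicate 2 the median was 0.59, and without Smarca4+/- CC replicate 1 it was 1.10.

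The smallest p-values in CC belonged to Cenpi, Ncapd2 and Mki67. Cenpi was at least 13.3-fold higher in Smarca4+/- CC than in Smarca4+/+ CC (adjusted p = 0.0954), with 53 counts against 0. On the log2 scale Ncapd2 was higher by 1.31 (SE 0.24, adjusted p = 0.100) and Mki67 by 1.01 (SE 0.19, adjusted p = 0.100), both higher in 2 of 2 libraries. Without 1 library of these groups the Cenpi bound was 6.36-fold to 18.8-fold. Cenpl, with 5 and 22 counts in Smarca4+/- CC and 0 in Smarca4+/+ CC, was at least 6.40-fold higher in Smarca4+/- CC, and this bound was 2.61-fold without Smarca4+/- CC replicate 2, 10.2-fold without replicate 1 of that group, and 3.06-fold to 3.34-fold without either Smarca4+/+ CC library. Cenpw had 0 and 6 counts in Smarca4+/- CC and 0 in Smarca4+/+ CC, so its bound of at least 1.39-fold higher in Smarca4+/- CC rests on replicate 2 alone, and it vanished without that library or either Smarca4+/+ CC library. Cenpp was at or under the floor in both groups. Cenpm was 6.62-fold higher (counting interval 1.59 to 58.8). The genes with a fold change below 0 were Cenph, Cenpt, Spc25, Kifc1 and Ube2c, from -0.42 to -0.08 on the log2 scale. By role the genes with an unadjusted p under 0.05, all higher in Smarca4+/- CC, were 3 of 10 inner kinetochore, 3 of 6 outer kinetochore, 6 of 11 kinesin, 6 of 9 condensin, 0 of 3 passenger complex and 2 of 5 cyclin group genes.

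In CB, 0 of the 44 genes passed, as did 0% of all genes tested, and 0 had an unadjusted p under 0.05, against 0.646% of all genes. DESeq2 and limma-voom also called 0 of the 44, where they called 3 and 5 of all 12997 tested genes. The median fold change was 0.20 on the log2 scale, against -0.0044 over all genes, and 40 of the 44 were above 0, against 49.3% of all genes. Single libraries moved the median, to 0.0412 without Smarca4+/- CB replicate 1, 0.33 when replicate 2 of that group was left out, and to 0.0928 and 0.33 when Smarca4+/+ CB replicates 1 and 2 were left out in turn. Both Smarca4+/- CB libraries lay above both Smarca4+/+ CB libraries for 10 of the 44, against 16.2%. The smallest p-values were those of Ncapd3 (0.41, SE 0.25), Smc4 (0.32, SE 0.21) and Ccna2 (0.28, SE 0.22), each with an adjusted p of 1.

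The difference between the genotypes in the CC over CB change was tested as an interaction, positive where the CC level was less reduced in Smarca4+/- cells. By edgeR 0 of the 44 genes passed, as did 0% of all genes. At an unadjusted p under 0.05, 9 were above 0, against 5.56% of all genes. Of the 44 values, 39 were above 0, against 54.5%, with a median of 0.70, and 0.65 without the genes at 0 in a group, against 0.10 over all genes. The median was 0.39 without Smarca4+/- CC replicate 2 and 0.94 without Smarca4+/- CC replicate 1. The smallest p-values were those of Cenpi, Ncapd2 (1.21, SE 0.32, adjusted p = 0.419) and Mki67 (0.95, SE 0.26, adjusted p = 0.419). DESeq2 called 4 of the 44 above 0, where it called 339 of all 12997 tested genes in either direction. Limma-voom called 0 of the 44 and 0 of all genes. The smaller number of calls in Smarca4+/- than in Smarca4+/+ cells is therefore not shown to be a difference between the genotypes by the edgeR test.

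**Figure D5:**
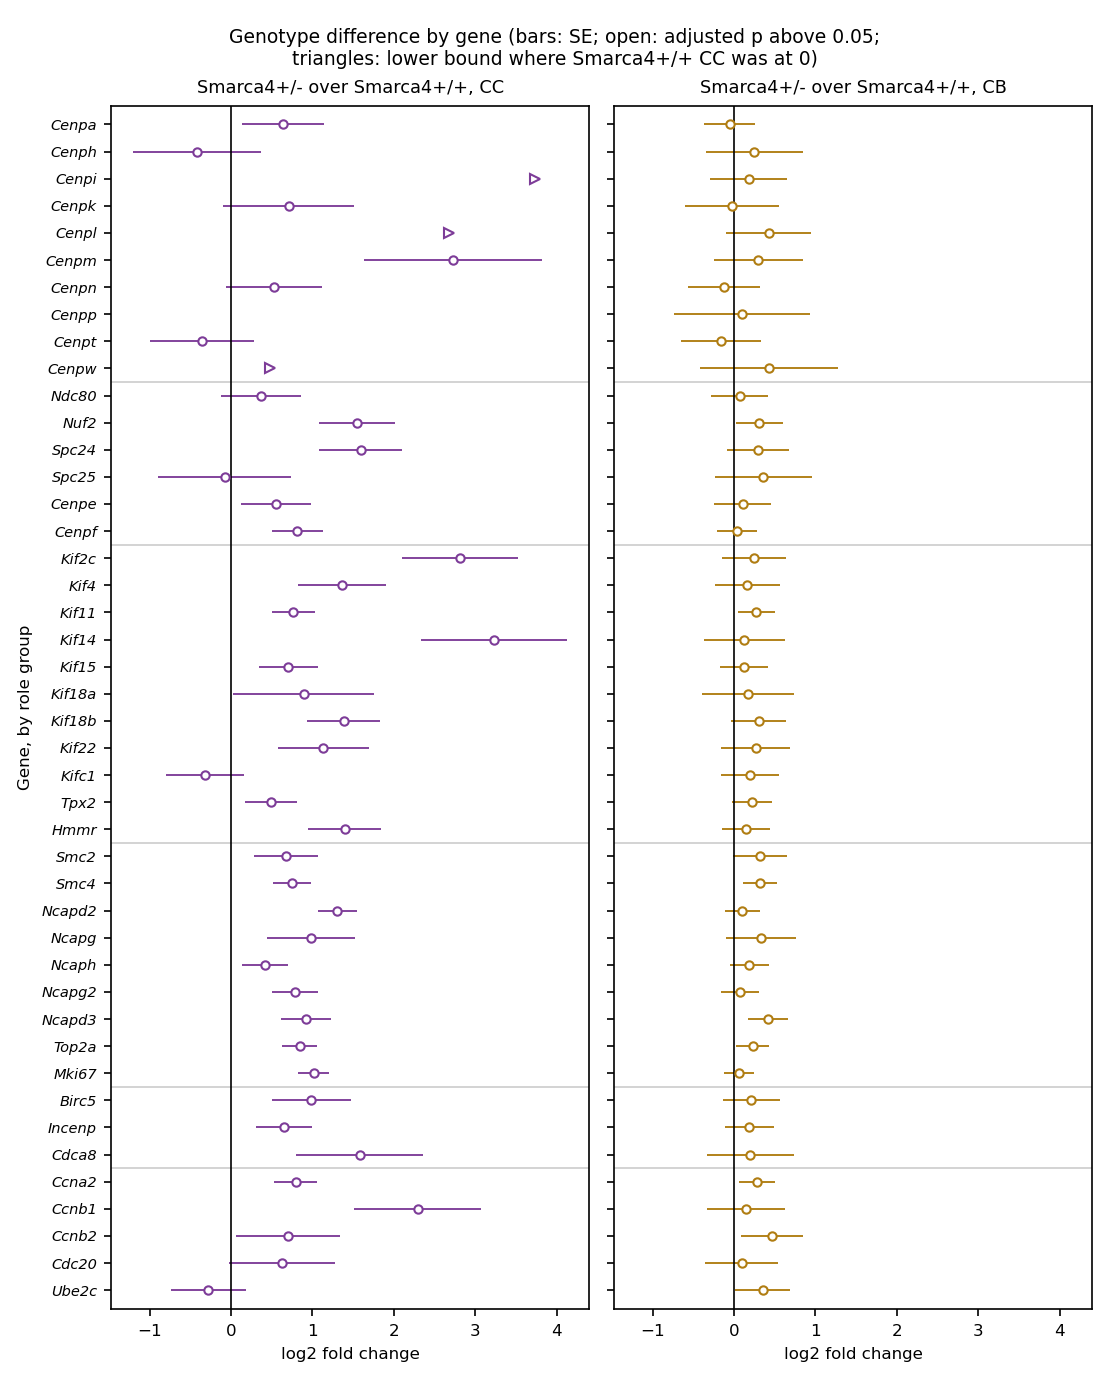
Log2 fold change of Smarca4+/- over Smarca4+/+ for each gene in CC (left) and CB (right), with SE as bars. Triangles stand for the smallest fold that the floor allows where Smarca4+/+ CC was at 0, and Cenpp has no CC value. All symbols are open because 0 genes passed, and 5 points in CC and 4 in CB lie left of 0.

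The libraries of a group differed among themselves. Over all tested genes the log2 levels of replicates correlated (Pearson) at 0.79 in Smarca4+/- CC and 0.77 in Smarca4+/+ CC. The values were 0.98 in Smarca4+/- CB and 0.97 in Smarca4+/+ CB. Of the 44 genes, 35 were higher in Smarca4+/- CC replicate 2 than in replicate 1, against 47.5% of all genes, and 36 were higher in Smarca4+/- CB replicate 1 than in replicate 2, against 48.6%. For 30 genes all 4 CC libraries lay below all 4 CB libraries, against 14.8% of all genes tested. The remaining 14 were Cenph, Cenpi, Cenpk, Cenpl, Cenpn, Cenpt, Cenpw, Spc24, Spc25, Kif14, Kif18b, Kif22, Ncapg and Ncapd3, of which 7 are inner kinetochore genes, most of them with low counts. For 35 genes the Smarca4+/- CC mean lay above the Smarca4+/+ CC mean and below both CB means, against 18.2% of all genes tested.

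Markers of other cells also differed between the libraries. All 13 macrophage markers were detected in every CC library, with a summed level of 4065 and 1777 CPM in Smarca4+/- CC, 3311 and 3372 CPM in Smarca4+/+ CC, 122 and 80.1 CPM in Smarca4+/- CB, and 57.7 and 274 CPM in Smarca4+/+ CB. The 12 T cell markers summed to 267 and 218 CPM in Smarca4+/- CC, 579 and 656 CPM in Smarca4+/+ CC, and 111 to 135 CPM in CB. The 9 erythroid markers summed to 465 and 121 CPM in Smarca4+/- CC, 629 and 798 CPM in Smarca4+/+ CC, and 5.04 to 12.9 CPM in CB. Of the T cell markers 11 or 12 were detected in CC libraries and 6 to 9 in CB libraries, and of the erythroid markers 7 to 9 in CC and 4 to 9 in CB. Smarca4+/- CC replicate 2, with the highest sum of the 44 genes among the CC libraries, had the lowest macrophage, T cell and erythroid sums of these. Smarca4+/- CC replicate 1 had the highest macrophage sum, and its sum of the 44 genes was also above both Smarca4+/+ CC sums. Its T cell and erythroid sums were below those of both Smarca4+/+ CC libraries. The summed level of 12 general B cell genes was 5794 and 7525 CPM in Smarca4+/- CC, 6351 and 6640 CPM in Smarca4+/+ CC, 7743 and 8518 CPM in Smarca4+/- CB, and 8728 and 8204 CPM in Smarca4+/+ CB. Sums were 1099 to 1721 CPM in CC and 2264 to 2327 CPM in CB for 8 germinal centre B cell genes, 652 to 763 CPM in CC and 1412 to 1523 CPM in CB for 6 dark zone genes, 1011 to 1414 CPM in CC and 407 to 473 CPM in CB for 10 light zone genes, and 456 to 502 CPM in CC and 654 to 777 CPM in CB for 7 plasma cell genes. The part of other cells in the lower CC levels, and in the genotype difference within CC, was not tested.

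Other genes of the same machinery, listed by function, were counted in the same way. Of 11 further inner kinetochore and CENP-A deposition genes, 0 passed in Smarca4+/- CC and 2 fell in Smarca4+/+ CC: Hjurp, the chaperone that loads CENP-A (log2 fold change -1.63, SE 0.22, adjusted p = 0.0021), and Cenpu, which was at 0 in both Smarca4+/+ CC libraries (adjusted p = 0.0422). Of 13 further outer kinetochore genes, 0 passed in Smarca4+/- CC and 3 fell in Smarca4+/+ CC, the dynein adaptor Spdl1 (-2.95, SE 0.54), the MIS12 complex subunit Nsl1 (-4.18, SE 0.83) and the scaffold Knl1 (-2.19, SE 0.44). Of 15 further condensin and cohesin genes, 2 fell in Smarca4+/- CC and 5 in Smarca4+/+ CC, among them Espl1, the separase that cuts cohesin (-1.42, SE 0.29, adjusted p = 0.0234 in Smarca4+/-; -2.78, SE 0.35, adjusted p = 0.00164 in Smarca4+/+), Cdca5, which holds cohesin on chromatin, and the cohesin subunit Rad21.

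Among 17 tested kinesins of transport in interphase, 0 fell and 1 rose in each genotype, Kif13a. Its level was 24.0 and 21.3 CPM in Smarca4+/- CC, 12.5 and 16.3 CPM in Smarca4+/+ CC, 1.37 and 2.83 CPM in Smarca4+/- CB, and 2.13 and 1.96 CPM in Smarca4+/+ CB. Their median log2 fold change was -0.03 in Smarca4+/- and -0.13 in Smarca4+/+ cells. Of 30 DNA replication genes 3 fell in each genotype. In Smarca4+/+ cells these were Rrm2 (a ribonucleotide reductase subunit), Pola1 (a DNA polymerase) and Mcm5 (a helicase subunit), and the medians of the list were -0.63 in Smarca4+/- and -0.67 in Smarca4+/+ cells. The summed level of the replication genes in CC was 63.7% of CB in Smarca4+/- and 62.9% in Smarca4+/+ cells, a nearly equal share, beside 51.6% and 30.3% for the 44 genes in the same genotypes. A lower share in Smarca4+/+ cells was not particular to the 44 genes. The shares were 68.9% and 46.8%, in that order, for the further outer kinetochore genes, and 68.6% and 48.0% for the further inner kinetochore genes. For the further condensin and cohesin genes they were 68.6% and 66.7%. Differences between lists were not tested. Of 16 regulators of late cell cycle transcription (DREAM, MuvB, B-MYB, FOXM1 and NF-Y subunits), 0 passed in Smarca4+/- CC and 2 fell in Smarca4+/+ CC. Foxm1, the activator that binds with MuvB at the CHR, had 85.5 and 123 CPM in Smarca4+/- CC, 14.3 and 29.4 CPM in Smarca4+/+ CC, 193 and 214 CPM in Smarca4+/- CB, and 181 and 220 CPM in Smarca4+/+ CB. Its log2 fold change was -0.96 (SE 0.28, adjusted p = 0.0904) in Smarca4+/- and -3.18 (SE 0.35, adjusted p = 0.00107) in Smarca4+/+ cells, without overlap between the CC groups.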

How the data were processed

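RNA was measured in 8 bulk libraries, 2 in each of 4 groups set by Smarca4 genotype and cell fraction. The authors deposited whole-number read counts for each gene, not normalized, beside the gene's exon length in bases. Per the labels' protocols, libraries were made from total RNA depleted of ribosomal RNA. Per the submitters' processing notes, FastQC, STAR, featureCounts of Subread, R 4.2.1 and the build mm10 were used. Whether counting used strand, and how multimapping reads were handled, is not given in the sources used here, so genes with copies or overlapping neighbours are uncertain: 13 of the 44 genes share exon bases with another gene (11 of them on the opposite strand) and 7 have a stretch of at least 200 bases with at least 95% identity to another transcript (blastn 2.17.0).

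Counts were analysed with edgeR 4.0.16 in R 4.3.3: filterByExpr (minimum count 10, minimum total 15) kept 12997 genes, libraries were scaled by TMM, and a quasi-likelihood F test, 2-sided, was fitted with a mean per group to all 8 libraries (4 residual degrees of freedom). P-values were adjusted by the Benjamini-Hochberg method over all genes tested, with a threshold of 0.05. SE is the fold change divided by the root of the F statistic. The fit was tested on simulated data. A group at 0 was read as up to 3 counts over its 2 libraries. Each bound is the mean level of the other group over that floor, without the counting error of that mean. The 95% counting intervals are exact for independent counts. Both take each count as an independent fragment, which the even low counts put in doubt, so the bounds could be smaller and the intervals wider. Neither covers the spread between libraries. The deposited coordinates (mm10) equalled those of GENCODE M21 for all 54673 identifiers found there in the same version. The members, lists and tests were chosen with earlier results of these data known. All 44 genes are named, and values in every library are given, per role, for the 2 genes of highest mean level and the 2 of smallest p in Smarca4+/+ CC against CB, for 10 well-known genes, and for genes at 0 in a group, against their role's direction or of the 3 smallest p in a genotype comparison, some of these by range or fold only. Other genes of a list are named up to 3 by smallest p in the same comparison. Ube2c is given in full beyond this rule, chosen after its values were seen. Alternatives were DESeq2 1.42.0, limma-voom 3.58.1, RLE, total count and general B cell gene scaling, no filter, a stricter filter (50 counts in 2 libraries), only the groups compared, replicate blocks, CB libraries thinned to 657641 counts, and each library left out. Added after the data were seen was a fit on counts halved and rounded up, since most low counts are even.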

Additional observations from a re-analysis of the deposited data

How the results depend on the processing

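Under every alternative run, 0 of the 44 genes were called higher in CC than in CB in either genotype. The number that fell in Smarca4+/- CC was 9, but 0 with limma-voom (15 at an unadjusted p under 0.05), 4 with only the groups compared, 5 with general B cell gene scaling, 16 with the replicate block within genotype, 17 with halved counts and 20 with no filter, and 0 to 19 with each library left out. Over all genes the Smarca4+/- calls in CC against CB, in either direction, numbered 477 of 12997 in the main fit. They were 391 with limma-voom, 412 with general B cell gene scaling and 576 with the replicate block within genotype, each of 12997. They were 308 of 12044 with only the groups compared, 979 of 12016 with halved counts and 1142 of 21554 with no filter. The share of all genes at an unadjusted p under 0.05 was not counted for limma-voom. The median log2 fold change of the 44 genes in Smarca4+/- cells was -1.52 to -0.69 with each library left out. In Smarca4+/+ cells the calls over all genes, in either direction, numbered 973 of 12997 in the main fit. They were 700 of 12997 with limma-voom and 292 of 11953 with only the groups compared. They were 2167 of 12997 with DESeq2, 1369 of 12016 with halved counts and 1651 of 21554 with no filter. They were 857 to 908 of 12997 with the other scalings, 731 of 10517 with the stricter filter and 620 of 8212 with the thinned counts. With the replicate block they were 812, and with the block within genotype 966, each of 12997. The number of the 44 that fell in Smarca4+/+ CC was 24, but 9 with limma-voom and 13 with only the groups compared. It was 18 to 32 under DESeq2, the other scalings, either other filter, the thinned or halved counts and the replicate blocks. With each library left out it was 10 to 30. The genotype comparison in CC gave 0 calls, but 8 with DESeq2, 11 with no filter and 2 with halved counts, all higher in Smarca4+/-. Over all genes it gave 3 of 12997, but 846 of 12997 with DESeq2, 323 of 21554 with no filter and 29 of 12016 with halved counts. The interaction gave 0 calls, but 4 with DESeq2 and 4 with no filter, beside 339 of 12997 and 46 of 21554 over all genes. With each library left out the genotype comparisons and the interaction gave 0 calls (0 to 0). In CB the genotype comparison gave 0 calls under every alternative. The cause of these changes was not tested. A group left with 1 library was assumed to vary like the other groups. Not all 44 genes were tested in every fit. Without any 1 CB library 42 were tested, and with the thinned counts 41.

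The labels do not say that equal replicate numbers mark a shared source, and deviations of same-numbered libraries correlated at -0.0326 to 0.0497 over the 6 pairs of groups. With the replicate number as a block the counts were 9 of 44 in Smarca4+/- and 25 in Smarca4+/+ cells. Over all 12997 genes the calls, in either direction, were then 443 in Smarca4+/- and 812 in Smarca4+/+ cells. With the block within genotype the counts were 16 of 44 in Smarca4+/- and 30 in Smarca4+/+ cells. The calls over all 12997 genes were then 576 in Smarca4+/- and 966 in Smarca4+/+ cells.

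The median of all genes in CC over CB moved with the scaling, being -0.08 with TMM and 0.21 with general B cell gene scaling in Smarca4+/- cells (-0.96 and -0.71 for the 44 genes) and -0.19 and 0.19 with the same scalings in Smarca4+/+ cells (-1.76 and -1.39 for the 44 genes). The median of the 44 genes lay below that of all genes under each. Directions turned round in 11 cases, none of them past the threshold. In Smarca4+/+ cells these were Cenph (0.11), at -0.14 with limma-voom, -0.10 with the replicate block within genotype and -1.31 to 0.82 with each library left out, lowest without Smarca4+/+ CC replicate 1, and Cenpt (-0.32), at 0.0736 with general B cell gene scaling and -1.41 to 0.30 with each library left out, highest without Smarca4+/+ CC replicate 2. In Smarca4+/- cells they were Ncapd3 (-0.30), at 0.0086 with general B cell gene scaling, and, with each library left out, Cenpi (0.37) at -0.40 to 0.84, Cenpk (0.09) at -0.0156 to 0.17, Cenpn (-0.39) at -1.06 to 0.0505, Cenpt (-0.51) at -1.40 to 0.0230 and Spc24 (0.21) at -0.0798 to 0.40. Cenpi turned without Smarca4+/- CC replicate 1 and the other 4 without replicate 2 of that group. Single genes kept direction and side of the threshold in 1635 cases, lost a call in 150 and gained one in 113. In CC the depth limits the genes of few counts, and differences in them may not have been detectable.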
